A study of Mus musculus with 6 samples.

Results

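Chemokine ligands and chemokine receptors were followed in the livers of mice with diet-induced non-alcoholic steatohepatitis (NASH), in control mice and in mice in which the long noncoding RNA Blnc1 was targeted in the liver. The genes were chosen by symbol alone. A gene was taken if its symbol was Ccl, Cxcl, Ccr or Cxcr followed by a number, or was Cx3cl1, Cx3cr1, Xcl1 or Xcr1, whatever its level. This gave 51 of the 17460 genes listed, 33 ligands and 18 receptors. The ligands were 19 CC, 12 CXC, 1 CX3C and 1 XC chemokine, and the receptors were 10 CC, 6 CXC, 1 CX3C and 1 XC receptor. All 51 passed the filter on low values (a normalized value that reached 1 in 3 or more livers).

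Chemokines are small secreted proteins that guide leukocytes along a concentration gradient, and their families are named for the spacing of conserved cysteines near the amino terminus. Their receptors span the membrane and signal through inhibitory G proteins, and most receptors bind several ligands while many ligands bind several receptors. In the injured liver, hepatocytes, Kupffer cells (the resident macrophages), stellate cells and endothelial cells are known sources of chemokines, and CCR2 with its ligand CCL2 is known for bringing blood monocytes into the tissue.

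The study compared control mice with liver-specific Blnc1 knockout mice (Blnc1 LKO) to ask how loss of Blnc1 bears on NASH. Both groups were C57BL/6 mice aged 9 months that had eaten the NASH diet for 24 weeks, with 3 livers in each group; their sex is not given in the sources used here. Per the study's methods, the knockout was made by injecting Cas9 transgenic mice with an adenovirus that carries guide RNAs against Blnc1, so Blnc1 was targeted in the cells that the vector entered. The study describes liver cells other than hepatocytes as poorly reached by adenovirus. The vector given to the control mice of this diet cohort is not given in the sources used here, and neither is it said in so many words that each library is a separate mouse, so p-values measure the spread between these 6 libraries.

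Stretches of genome before annotated starts of 5 genes are shown first, because their genes are set against each other in the results. Cxcl9 and Cxcl10 lie side by side on chromosome 5 and encode ligands of CXCR3, and for both every Blnc1 LKO value lay below the control values. Cxcl1 and Cxcl2 lie in another chemokine cluster of the same chromosome and encode ligands of CXCR2, and their groups overlapped. Ccr2 encodes the receptor of monocyte chemoattractants, and it too was lower in every Blnc1 LKO liver. Each sequence is the 250 bases just before a start of transcription that RefSeq annotates, 5′ to 3′ on the strand of the gene, on build GRCm38.p6. For Ccr2 this start lies inside the listed extent of the gene, which begins at 124101918, so its window is not upstream of the whole gene. Capitals mark matches to any of the 3 motifs described after them.
Cxcl10, chr5:92348890-92349139, minus strand: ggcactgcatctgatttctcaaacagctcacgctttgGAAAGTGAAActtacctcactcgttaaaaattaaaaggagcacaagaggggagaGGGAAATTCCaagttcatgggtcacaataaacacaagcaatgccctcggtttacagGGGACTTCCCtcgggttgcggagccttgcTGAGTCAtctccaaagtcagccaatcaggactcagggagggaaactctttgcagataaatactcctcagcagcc
Cxcl9, chr5:92328080-92328329, minus strand: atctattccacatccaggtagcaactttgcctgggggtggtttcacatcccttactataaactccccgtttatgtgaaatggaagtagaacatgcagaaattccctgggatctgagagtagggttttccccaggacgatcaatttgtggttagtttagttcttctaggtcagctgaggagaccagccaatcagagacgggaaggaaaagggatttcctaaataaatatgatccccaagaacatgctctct
Cxcl1, chr5:90890995-90891244, plus strand: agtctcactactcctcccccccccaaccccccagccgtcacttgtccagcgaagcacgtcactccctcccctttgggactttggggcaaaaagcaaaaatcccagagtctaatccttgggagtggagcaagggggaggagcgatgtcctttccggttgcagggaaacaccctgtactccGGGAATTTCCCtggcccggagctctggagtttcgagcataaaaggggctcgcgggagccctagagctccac
Cxcl2, chr5:90903649-90903898, plus strand: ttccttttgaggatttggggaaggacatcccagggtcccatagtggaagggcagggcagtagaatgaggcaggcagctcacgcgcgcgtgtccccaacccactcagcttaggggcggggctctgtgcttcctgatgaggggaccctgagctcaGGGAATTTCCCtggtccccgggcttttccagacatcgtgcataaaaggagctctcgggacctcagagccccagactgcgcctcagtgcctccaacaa
Ccr2, chr9:124101933-124102182, plus strand: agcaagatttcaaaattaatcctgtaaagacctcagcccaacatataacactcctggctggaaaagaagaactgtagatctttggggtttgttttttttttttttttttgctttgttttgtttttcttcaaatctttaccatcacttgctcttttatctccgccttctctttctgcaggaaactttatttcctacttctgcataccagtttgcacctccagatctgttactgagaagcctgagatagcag

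The motifs were searched on both strands. They were the kappa-B motif that NF-kappa-B binds, the interferon-stimulated response element in the form GAAANNGAAA, and the AP-1 motif TGANTCA, where N is any base. The Cxcl10 sequence held 2 kappa-B matches that began 159 and 103 bases before the start, 1 interferon-stimulated response element that began 213 bases before it, and 1 AP-1 match that began 74 bases before it. In Cxcl1 and Cxcl2 a single run of bases gave 2 overlapping kappa-B matches, which began 71 and 70 bases before the start of Cxcl1 and 97 and 96 bases before that of Cxcl2. No match to one motif overlapped a match to another in these sequences. The Cxcl9 and Ccr2 sequences held no match to these letters. RefSeq windows were at hand for 37 of the 51 genes, with 41 windows in all, since a gene can have several starts. Kappa-B was found in 8 of the 41 windows (19.5%) against 3.9% of all 32851 windows of this length, the interferon-stimulated response element in 3 (7.32%) against 2.98%, and AP-1 in 5 (12.2%) against 6.75%. Some of these windows are near copies of each other, as in Cxcl1, Cxcl2 and Cxcl3, so they are not independent counts, and a match is a run of letters and not a measured binding site.

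Liver RNA was sequenced after polyA selection, and the deposited values, called normalized values here, are reads on each gene after scaling by the size factor of a liver. They are not corrected for gene length. The reads on listed genes numbered 65384969 to 89350181 per liver. Blnc1 has no entry of its own among the listed genes, and RefSeq gives it as another name of Paqr9. The study treats Paqr9 as a separate gene next to Blnc1. It reports that the guide RNAs inactivated Blnc1 in the liver and left Paqr9 mRNA unaffected. Paqr9 had normalized values of 16950, 18810 and 15156 in control and of 18268, 15663 and 20027 in Blnc1 LKO livers. Its log2 fold change was 0.08 (adjusted p = 0.978, limma). These are values of the neighbouring gene, so the loss of Blnc1 itself was not measured in them. Fold changes are Blnc1 LKO minus control on the log2(value + 1) scale, on which differences of low genes come out too small. With 3 livers against 3, an exact permutation test cannot give a p below 0.1, so p-values from limma's moderated test, fitted over 17297 genes with Benjamini-Hochberg adjustment, are given instead.

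In limma, 0 of the 51 chemokine and receptor genes had an adjusted p under 0.05, against 1 of all genes tested (0.00578%). The family was nonetheless mostly on the lower side in Blnc1 LKO livers. Of the 51 genes, 35 had a log2 fold change below 0 and 16 above it, with a median of −0.110 against −0.001 over all genes tested. At an unadjusted p under 0.05, 11 genes (21.6%) were lower in Blnc1 LKO livers against 2.74% of all genes tested, and 2 (3.92%) were higher against 2.94%. Every Blnc1 LKO value lay below every control value for 9 genes (17.6%) against 5.28% of all genes tested, and above for 3 genes (5.88%) against 5.35%. The 9 were Ccl2, Ccl7, Ccl12, Ccr2, Ccr1, Ccl24, Cxcl9, Cxcl10 and Cxcr4. The other genes with a lower value at an unadjusted p under 0.05 were Ccl5 and Cx3cr1, whose groups overlapped. The genes are not independent of each other, so these shares are descriptions, with no test of the set. The 11 became 6 without control replicate 1, and 7 without control replicate 2 or replicate 3. The share of all genes tested that was lower at that p also fell, from 2.74% to 1.75%, 2.05% and 1.91% in turn.

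The number of calls differed between the tests run on the recovered reads. edgeR called 2 genes of all those tested (0.0116%) and no chemokine gene at an adjusted p under 0.05. At an unadjusted p under 0.05 in edgeR, 11 chemokine genes were lower, against 2.62% of all genes tested, and 3 were higher. DESeq2 called 84 genes (0.486%), and 1 of them was a chemokine, Cxcl9. Under each of the 14 alternatives tried, 5 of the 51 genes had an unadjusted p under 0.05, Ccl2, Ccr2, Ccr1, Cxcl9 and Cxcr4. The share of all genes tested that did so was not computed. The alternatives use the same 6 livers, so they are not independent tests.

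**Figure D1:**
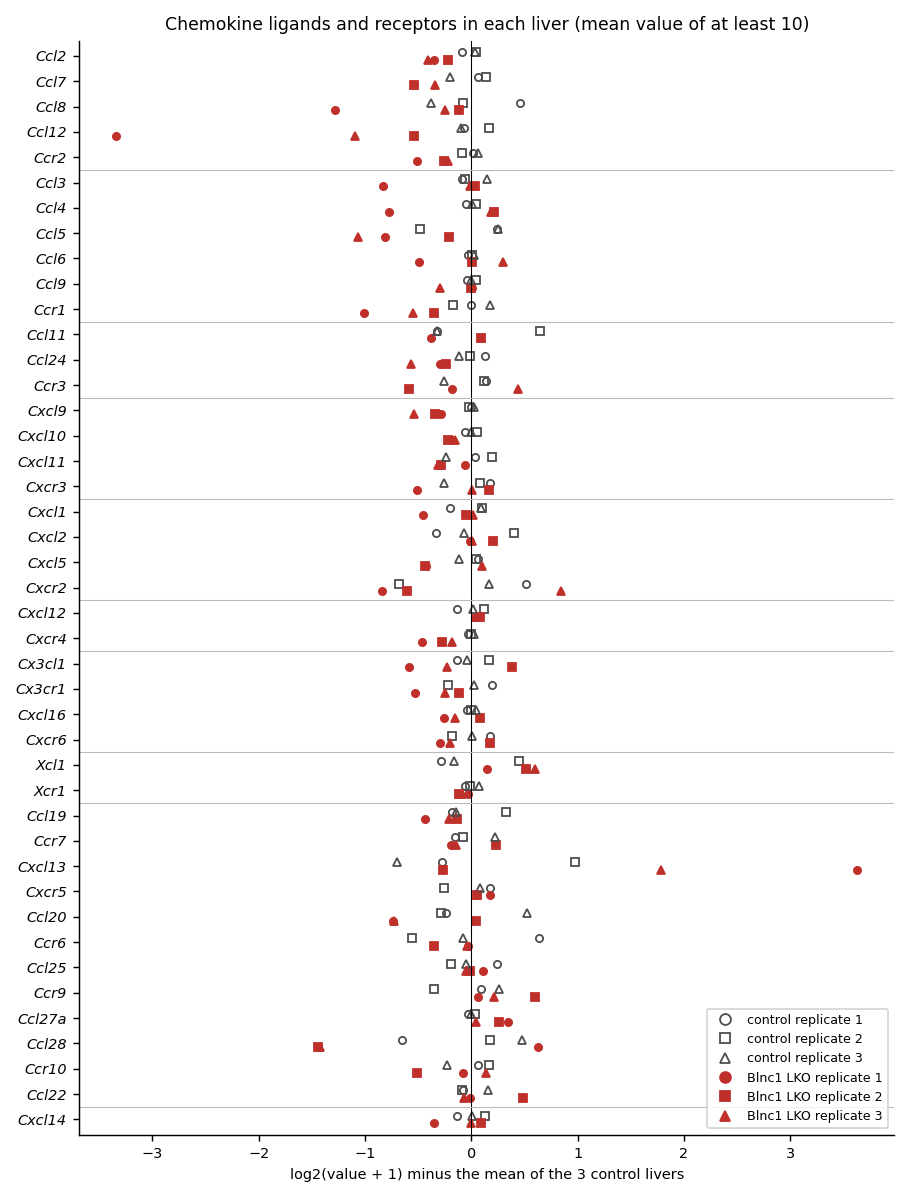
Each row is 1 of 43 chemokine or receptor genes with a mean normalized value of at least 10, ordered by ligand and receptor group (grey lines), and the horizontal axis gives log2(value + 1) minus the mean of the 3 control livers. Open grey symbols are control livers and filled red symbols Blnc1 LKO livers; most red symbols in the upper rows lie left of 0, and replicate 1 of Blnc1 LKO (red circles) is often the farthest left, with Ccl12 and Cxcl13 the widest.

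Ligands and receptors were both mostly on the lower side. Of 33 ligands, 22 were below 0 with a median log2 fold change of −0.127, and 7 were lower at an unadjusted p under 0.05. Of 18 receptors, 13 were below 0 with a median of −0.107, and 4 were lower at that p. Within the family, the direction differed by the level of the gene. Among the 29 genes with a mean normalized value of at least 100, 25 were below 0. Of these 29, 10 (34.5%) were lower at an unadjusted p under 0.05 and none was higher at that p. Over all genes tested, of any level, 50.4% were below 0, 2.74% were lower at that p and 2.94% higher. Shares over all genes of like level were not computed. All 7 genes with a mean under 10 were above 0, at levels where a few reads set the value.

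The lower values were not spread evenly over the Blnc1 LKO livers. The median over the 51 genes of the log2 difference from the control mean was −0.292 in Blnc1 LKO replicate 1, −0.051 in replicate 2 and −0.015 in replicate 3, where the medians over all genes tested were 0.005, 0.004 and 0.003. Replicate 1 was below every control liver for 29 of the 51 genes (56.9%) against 32.1% of all genes tested, and above every control liver for 9 (17.6%) against 33.6%. Replicate 2 was below for 16 (31.4%, against 27.9%) and above for 14 (27.5%, against 27.6%), shares near those of all genes. Replicate 3 was below for 20 (39.2%, against 27.8%) and above for 12 (23.5%, against 29.4%). Without replicate 1, only 27 of the 51 genes were below 0 (52.9%, against 50% of all genes tested), and the median log2 fold change was −0.018 for ligands and −0.043 for receptors. There were then 10 genes lower at an unadjusted p under 0.05, against 3.02% of all genes tested. Of these 10, 9 were among the 11 named.

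Levels were compared between genes only after dividing each normalized value by the merged exon length of the gene in kilobases. Cxcl12, a chemokine made by stromal and endothelial cells, had the highest level of the ligands by far, with a mean over 6 livers of 3850 per kilobase and a lowest liver of 3431. Ccl6 followed at 1881 with a highest liver of 2337, so the levels of the first and the next ligand did not overlap. Ccl9 (1435), Ccl5 (1248), Cxcl9 (1083), Cxcl16 (964), Cxcl14 (643), Cxcl1 (410), Ccl2 (392) and Cxcl10 (380) came next. This order is of means over both groups, and Ccl5 changes place within it: its level per kilobase was 1540 in control livers, above Ccl9 at 1480, and 955 in Blnc1 LKO livers, near Cxcl9 at 939 and Cxcl16 at 930. The highest receptors lay below the highest ligands and closer together. Cx3cr1 had a mean of 339 per kilobase (258 to 424 over the livers), Ccr2 308 (240 to 358) and Cxcr4 297 (238 to 334), and their ranges overlapped. Cxcr6 (178), Ccr7 (120), Cxcr3 (94.9) and Ccr1 (77.4) followed.

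The monocyte chemoattractants and their receptor held the highest share of lower genes of any group. Of its 5 genes, 4 (80%) were lower in every Blnc1 LKO liver, against 5.28% of all genes tested. All 5 were below 0 (median log2 fold change −0.472). The groups are small and were drawn with earlier results of these data known, so their order is a description only. Ccl2 encodes the main monocyte chemoattractant, MCP-1, and lies with Ccl7, Ccl12 and Ccl8 in a cluster on chromosome 11 (GRCm38, 82035577 to 82179812). The control livers had normalized values of 467, 512 and 509, and the Blnc1 LKO livers of 388, 427 and 373. The groups did not overlap, and the mean went from 496 ± 25.3 (SD, n = 3) to 396 ± 27.8 (SD, n = 3). On the log2 scale the difference was −0.33 (standard error 0.09; unadjusted p = 0.00724, adjusted p = 0.714, limma).

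Ccl7 encodes MCP-3, which also acts on CCR2. Its values were 123, 130 and 102 in control and 80.9, 80.8 and 92.7 in Blnc1 LKO livers, again without overlap. This was a log2 fold change of −0.47 (standard error 0.16; unadjusted p = 0.0179, adjusted p = 0.824, limma). Ccl12 encodes MCP-5, a mouse ligand of CCR2, and had 31.7, 37.3 and 30.9 in control and 2.38, 22.5 and 15 in Blnc1 LKO livers. All 3 Blnc1 LKO livers were lower, but replicate 1 held only 2 reads and set much of the difference. With all livers the log2 fold change was −1.66 (standard error 0.64; unadjusted p = 0.0303, adjusted p = 0.842, limma), and it was −0.81 without that replicate. Ccl8, the remaining ligand placed in the group, had 105, 72.4 and 58.6 against 30.9, 70.5 and 64.3, so its groups overlapped. Whether its product acts on CCR2 in the mouse was not examined here.

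Ccr2 encodes the receptor that blood monocytes use to enter inflamed tissue, and lies in a receptor cluster on chromosome 9 (GRCm38, 124101918 to 124109140). Control livers had 2344, 2185 and 2423, and Blnc1 LKO livers 1620, 1934 and 1994. All 3 Blnc1 LKO livers lay below the lowest control liver, and the mean went from 2317 ± 121 (SD, n = 3) to 1849 ± 201 (SD, n = 3). Its log2 fold change was −0.33 (standard error 0.09; unadjusted p = 0.00462, adjusted p = 0.619, limma). In whole liver, fewer cells of a type and less RNA per cell cannot be told apart, here and for the other receptors.

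**Figure D2:**
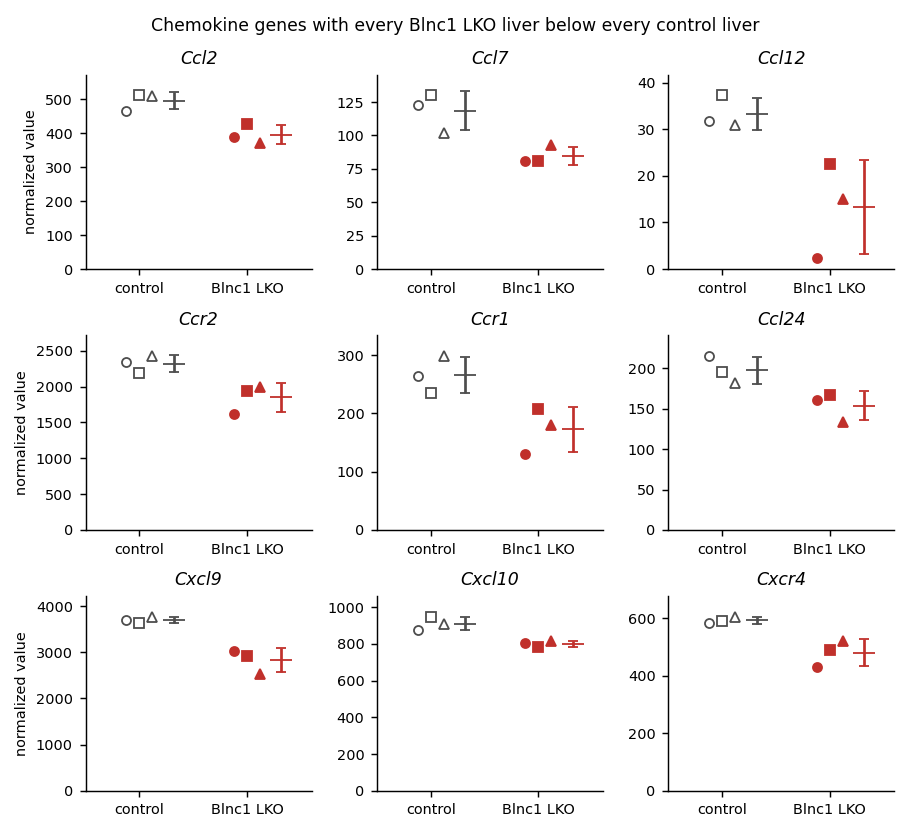
Normalized value (vertical axis, from 0) of the 9 chemokine and receptor genes whose 3 Blnc1 LKO livers (filled red) all lay below the 3 control livers (open grey). Symbols are single livers (circle, square and triangle for replicates 1, 2 and 3) and bars are the mean with the SD; Ccl12 has the widest spread among Blnc1 LKO livers, from 2.38 to 22.5, and Cxcl10 one of the narrowest, from 783 to 817.

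CCR1 is a receptor of monocytes, macrophages and T cells that shares inflammatory CC ligands with other receptors. All 6 genes of this group were below 0, but only Ccr1 was lower in every Blnc1 LKO liver. Ccr1 had normalized values of 264, 235 and 298 in control and 131, 207 and 180 in Blnc1 LKO livers. Its mean went from 266 ± 31.4 (SD, n = 3) to 173 ± 38.5 (SD, n = 3), and replicate 1 of Blnc1 LKO was the lowest. For Ccr1 the log2 fold change was −0.64 (standard error 0.18; unadjusted p = 0.00723, adjusted p = 0.714, limma).

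Of the ligands of this group, Ccl5 (RANTES, which T cells and NK cells make in quantity) had the largest difference. Control livers had 1700, 1028 and 1708, and Blnc1 LKO livers 818, 1246 and 686. Replicate 2 of Blnc1 LKO lay above replicate 2 of control, so the groups overlapped, and the log2 fold change was −0.70 (standard error 0.25; unadjusted p = 0.0214, adjusted p = 0.831, limma). Ccl6 and Ccl9 encode CCR1 ligands of myeloid cells. Ccl6 had 3343, 3418 and 3457 in control and 2416, 3426 and 4194 in Blnc1 LKO livers. Its Blnc1 LKO livers were spread to both sides of a tight control group (log2 fold change −0.06). Ccl9 had 4389, 4644 and 4490 against 4513, 4503 and 3676, where only replicate 3 of Blnc1 LKO was below the control livers (log2 fold change −0.10). Ccl3 and Ccl4, the macrophage inflammatory proteins MIP-1 alpha and beta, had mean values of 145 and 192 in control and 124 and 184 in Blnc1 LKO livers, with overlap. The listed extents of these genes overlap on opposite strands of chromosome 11. None of the 50-base words of their transcripts (0.0% for each) occurred in another gene model on either strand.

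Eotaxins draw eosinophils and basophils through CCR3. Ccl24, eotaxin-2, is known to be made by alternatively activated macrophages and lies on chromosome 5 (GRCm38, 135569935 to 135573123). Its values were 215, 196 and 182 in control and 161, 167 and 133 in Blnc1 LKO livers, without overlap. The mean went from 198 ± 16.7 (SD, n = 3) to 154 ± 18.3 (SD, n = 3). This gave a log2 fold change of −0.37 (standard error 0.14; unadjusted p = 0.0297, adjusted p = 0.842, limma). Ccl11 (a control mean of 29.8 and a Blnc1 LKO mean of 27.2) and the receptor gene Ccr3 (24.6 and 23.6) overlapped between the groups.

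The ligands of CXCR3 are induced by interferon gamma and draw activated T cells and NK cells. Their 3 genes lie together on chromosome 5 (GRCm38, 92321331 to 92363296), and all 4 genes of the group, receptor included, were below 0 (median −0.201). Cxcl9 had the smallest p of the 51 genes. Its values were 3695, 3636 and 3764 in control and 3039, 2916 and 2538 in Blnc1 LKO livers. The control livers were close to each other, and each Blnc1 LKO liver lay well below them (3698 ± 64.1 and 2831 ± 261; SD, n = 3 each). Its log2 fold change was −0.39 (standard error 0.07; unadjusted p = 5.27e-04, adjusted p = 0.506, limma). DESeq2 called it with an adjusted p of 0.00499, and over all alternatives the adjusted p ran from 0.00499 to 1.

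Cxcl10, the neighbour whose upstream sequence is printed with its kappa-B, interferon and AP-1 matches in capitals, had 875, 946 and 909 in control and 804, 783 and 817 in Blnc1 LKO livers. The groups did not overlap, but they lay closer together than those of Cxcl9 (910 ± 35.3 and 801 ± 17.4; SD, n = 3 each). For Cxcl10 the log2 fold change was −0.18 (standard error 0.07; unadjusted p = 0.0262, adjusted p = 0.84, limma). Cxcl11 had mean values of 201 and 172, with overlap. RefSeq marks Cxcl11 as a transcribed pseudogene in this genome, and 40.4% of its 50-base words occur in another gene model, Gm2673, so its value is uncertain. The receptor gene Cxcr3 had a control mean of 170 and a Blnc1 LKO mean of 158, also with overlap.

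CXCR2 and CXCR1 draw neutrophils. None of the 6 genes of this group had an unadjusted p under 0.05, and 3 were below 0 and 3 above (median −0.050). Cxcl1, the ligand of highest level per kilobase in the group, had 704, 865 and 863 in control and 588, 779 and 815 in Blnc1 LKO livers, with overlap and a log2 fold change of −0.16 that was −0.02 without Blnc1 LKO replicate 1. Cxcl2, whose upstream kappa-B run has the same letters as that of Cxcl1, had mean values of 64.1 and 65.6. The receptor gene Cxcr2 ranged from 37.3 to 86.7 in control and from 33.3 to 109 in Blnc1 LKO livers. Its highest value was in replicate 3 of Blnc1 LKO, the liver that also had the highest summed neutrophil markers.

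CXCL12 and CXCR4 hold blood stem cells and lymphocytes in their niches and guide leukocytes in inflamed tissue. The ligand and the receptor differed in these livers. Cxcl12 had 28053, 33643 and 31183 in control and 31618, 32608 and 31753 in Blnc1 LKO livers, all 3 Blnc1 LKO livers within the range of control (log2 fold change 0.05). Cxcr4, on chromosome 1 (GRCm38, 128588199 to 128592299), had 582, 592 and 604 in control and 431, 490 and 521 in Blnc1 LKO livers. Every Blnc1 LKO liver was lower, and the mean went from 593 ± 11.1 (SD, n = 3) to 481 ± 46 (SD, n = 3). Cxcr4 had a log2 fold change of −0.31 (standard error 0.09; unadjusted p = 0.0102, adjusted p = 0.751, limma).

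CX3CL1 and CXCL16 are made as membrane-bound ligands and can be shed, and their receptors are CX3CR1, which marks patrolling monocytes and several macrophage types, and CXCR6, which marks liver T cells and NKT cells. All 4 genes were below 0, and none of the 4 was free of overlap. Cx3cr1 (GRCm38, chromosome 9, 120048683 to 120068296) had 1911, 1438 and 1706 in control and 1160, 1542 and 1414 in Blnc1 LKO livers. Replicate 2 of Blnc1 LKO lay above replicate 2 of control. The means were 1685 ± 237 and 1372 ± 194 (SD, n = 3 each). Its log2 fold change was −0.30 (standard error 0.13; unadjusted p = 0.0474, adjusted p = 0.873, limma), and the unadjusted p was under 0.05 in 6 of 14 alternatives. Without Blnc1 LKO replicate 1 the log2 fold change was −0.18 (unadjusted p = 0.159, limma).

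The other genes of the group differed less between the groups than among the livers. Cx3cl1 had 680, 838 and 725 against 495, 973 and 637, with both the lowest and the highest liver in Blnc1 LKO (log2 fold change −0.14). Cxcl16 had 2925, 3009 and 3118 against 2531, 3183 and 2715 (log2 fold change −0.11), and 16.9% of its 50-base words are shared with its neighbour Zmynd15. Cxcr6 had 398, 311 and 355 against 288, 398 and 307 (log2 fold change −0.11). Without Blnc1 LKO replicate 1 these log2 fold changes were 0.08 for Cx3cl1, −0.04 for Cxcl16 and −0.01 for Cxcr6.

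XCR1 marks the dendritic cells that present antigen to CD8 T cells, and XCL1 is its ligand. Xcr1 had 193, 199 and 212 in control and 198, 185 and 190 in Blnc1 LKO livers, with overlap and a log2 fold change of −0.08. Xcl1 had mean values of 51.7 and 68.4, also with overlap.

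**Figure D3:**
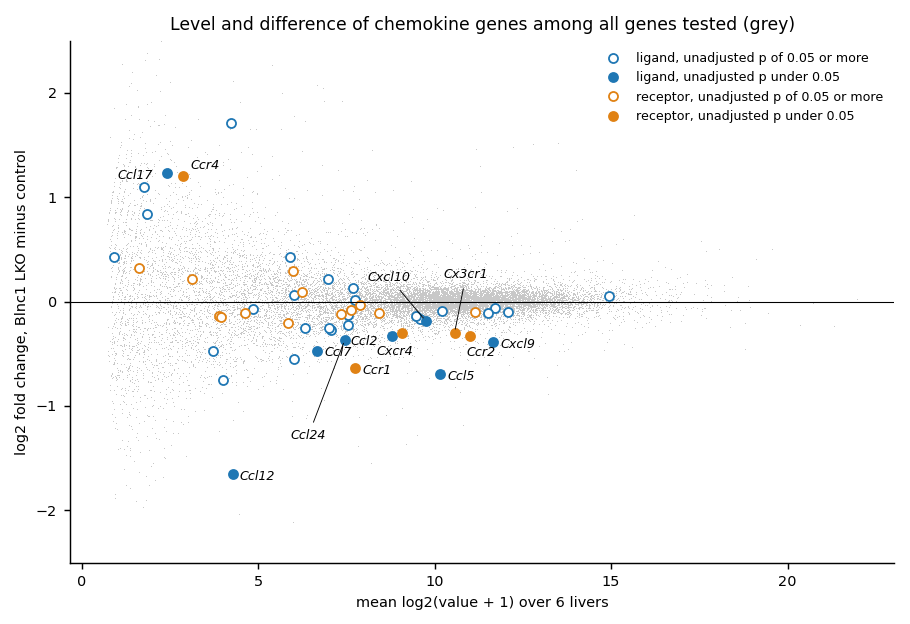
Horizontal axis, mean log2(value + 1) over the 6 livers; vertical axis, log2 fold change of Blnc1 LKO minus control. Grey dots are all genes tested (those beyond the limits of the axis are not drawn), blue circles ligands and orange circles receptors, filled where the unadjusted p was under 0.05; of the 13 filled circles, 11 lie below 0 and the other 2, Ccl17 and Ccr4, are among the lowest in level.

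The remaining ligands and receptors serve lymphoid tissue, skin and mucosa. Of 16 such genes, 6 were below 0 and 10 above (median 0.112), and none was lower at an unadjusted p under 0.05. Ccr7 takes dendritic cells and T cells to lymph nodes. It had 214, 226 and 279 in control and 208, 281 and 216 in Blnc1 LKO livers, with overlap and a log2 fold change of −0.03. Ccl27a was the only gene with a mean of at least 10 whose Blnc1 LKO livers all lay above the control livers, at 113, 118 and 115 against 146, 138 and 119. Its log2 fold change was 0.21 (unadjusted p = 0.17, adjusted p = 0.951, limma), and 45.0% of its 50-base words occur in other gene models, so its value is uncertain.

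Cxcl13, the B cell chemoattractant of lymphoid follicles, had the highest log2 fold change of the 51 genes, 1.71, and is named after its values were seen. It had 7.46, 19.2 and 5.33 in control and 126, 7.52 and 34.3 in Blnc1 LKO livers. Replicate 1 and replicate 3 of Blnc1 LKO were above the control livers and replicate 2 was among them (unadjusted p = 0.0851, adjusted p = 0.905, limma). The summed B cell markers were 451 to 646 in control and 571 to 680 in Blnc1 LKO livers, and their part in this was not tested.

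The 2 genes that were higher at an unadjusted p under 0.05, Ccl17 and Ccr4, were also named after their values were seen. Ccl17 is a ligand of CCR4, the receptor of type 2 helper and regulatory T cells. Ccl17 had values of 1.07 to 3.73 in control and 5.85 to 8.46 in Blnc1 LKO livers, from 1 to 9 reads per liver. Ccr4 had 1.86 to 6.39 and 7.14 to 16.7, from 2 to 20 reads. Ccl22, the other ligand of CCR4, had a higher level per kilobase (a mean of 88 over the livers, against 9.54 for Ccl17), with normalized means of 194 and 215 and overlap. The other 5 genes with a mean under 10, Cxcl3, Cxcr1, Ccl1, Ccr8 and Cxcl17, had means of 1.28 to 7.93 and overlapped between the groups, and Ccr8 and Cxcl17 were listed at 0 in at least 1 liver. At these levels a few reads set the value.

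The other lymphoid and mucosal genes overlapped between the groups without exception. Ccl19, which shares CCR7 with other ligands, had a control mean of 142 and a Blnc1 LKO mean of 117, and 52.0% of its 50-base words occur in another gene model. Ccl25, the thymus and gut chemokine, had 212 and 213, and its receptor gene Ccr9 56.8 and 69.7. Cxcr5, the receptor of CXCL13, had 73.2 and 77.5. Ccl20, Ccr6, Ccl28 and Ccr10 had group means between 10.6 and 20.7. Cxcl14, a chemokine of epithelial cells whose receptor is not settled, had 1100, 1313 and 1208 in control and 946, 1284 and 1201 in Blnc1 LKO livers (log2 fold change −0.09).

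The genome places many of these genes in clusters, and the lower values did not follow the clusters as wholes. In the chromosome 11 cluster from Ccl2 to Ccl1, 3 of 6 genes had an unadjusted p under 0.05 on the lower side. Over all genes tested that share was 2.74%. In the chromosome 11 cluster from Ccl5 to Ccl4 (83525778 to 83664683), 1 of 5 did, although all 5 were below 0. In the chromosome 9 receptor cluster (123767211 to 124109140, from Ccr9 to Ccr2), 2 of 6 did, Ccr1 and Ccr2, while Ccr3, which lies between them, overlapped between the groups. The CXCR2 ligand cluster on chromosome 5 (90759298 to 90905938) had 0 of 4, and the CXCR3 ligand cluster on the same chromosome 2 of 3.

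Genes that work with chemokine receptors were taken from a list of 37. Of these, none passed an adjusted p under 0.05 in limma, edgeR or DESeq2. At an unadjusted p under 0.05 in limma 1 (2.7%) was lower and 1 (2.7%) was higher. These shares were near the 2.74% and 2.94% of all genes tested. That number of 2 became 1 without control replicate 3, 4 without Blnc1 LKO replicate 1 and 5 without Blnc1 LKO replicate 2. The lower one was Ackr3, which encodes an atypical receptor that takes up CXCL12 without G protein signalling. Ackr3 had 242, 267 and 239 in control and 151, 190 and 218 in Blnc1 LKO livers, without overlap (log2 fold change −0.43, standard error 0.15; unadjusted p = 0.0201, limma). The higher one was Ppbp, a platelet chemokine, with 104, 55.4 and 59.6 against 94, 137 and 408. Its groups overlapped, and replicate 3 of Blnc1 LKO held the highest value (log2 fold change 1.30; unadjusted p = 0.0283, limma). The 30 genes for G proteins, arrestins, kinases and small GTPases downstream of the receptors had log2 fold changes from −0.24 to 0.14 (median −0.018). None of these 30 had an unadjusted p under 0.05. Of the 37 genes, 3 (8.11%) had every Blnc1 LKO value below every control value, against 5.28% of all genes tested. These were Ackr3, Ackr1 and Gnb1.

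Markers of the cells that make chemokines or carry their receptors were read beside them. The 8 monocyte and macrophage markers summed to 55040 to 56893 in control and 55808 to 63153 in Blnc1 LKO livers. Of these 8, 5 had a log2 fold change above 0 and 3 below it (median 0.051). Those below were Cd68 (−0.13), Fcgr1 (−0.09) and Cd14 (−0.07). Only Adgre1 had an unadjusted p under 0.05, and it was higher (log2 fold change 0.15, unadjusted p = 0.0275, limma). The 6 Kupffer cell markers summed to 44733 to 51814 and 49973 to 58215. Among them Clec4f, Vsig4, Timd4 and Marco were higher at an unadjusted p under 0.05. Cd5l and C1qa had log2 fold changes of 0.02 and −0.03 and did not pass it. Marco had the largest log2 fold change of the 6 (3.03) and was the only one whose groups did not overlap. It had 32.6, 87.4 and 23.4 in control and 794, 95.8 and 509 in Blnc1 LKO livers. The 5 markers of lipid-associated macrophages summed to 75365 to 87098 and 57933 to 85753, and of these Gpnmb and Lgals3 were lower at an unadjusted p under 0.05. The sums of all 3 lists overlapped between the groups, and no marker in them had an adjusted p under 0.05. The mean log2(value + 1) of the 6 Kupffer cell markers, minus its control mean, did not overlap. It was −0.10, 0.36 and −0.26 in control and 1.28, 0.40 and 1.13 in Blnc1 LKO livers, with replicate 2 of each group close together. On this measure the monocyte and macrophage list and the lipid-associated macrophage list still overlapped. The part of these 3 lists in the values of Ccr2, Ccr1, Ccl2 and Ccl24 was not tested.

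The summed markers of T cells, NK cells and dendritic cells overlapped between the groups. The 7 T cell markers summed to 1554 to 1938 in control and 1399 to 2018 in Blnc1 LKO livers, and the 6 NK cell markers to 649 to 939 and 549 to 837, where Eomes was lower without overlap (unadjusted p = 0.0332, limma) and Klrb1c higher (unadjusted p = 0.0466, limma). The 6 dendritic cell markers summed to 3218 to 3737 and 2548 to 3799. Of the 7 neutrophil markers fixed, 6 were listed (Ly6g was not), and they summed to 1129 to 1574 in control livers and to 1050, 1613 and 5464 in replicates 1, 2 and 3 of Blnc1 LKO. Replicate 3 stood apart in this list. It also had the highest values of Cxcr2, Ccl6 and Ppbp, and the part of these cells in them was not tested.

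Cells of the vessel wall and the hepatocytes complete the list. Endothelial markers summed to 22227 to 23485 in control and 21457 to 22140 in Blnc1 LKO livers, without overlap. Among them Pecam1, Lyve1 and Cdh5 were lower at an unadjusted p under 0.05. Stab2, Clec4g and Kdr had log2 fold changes of 0.06, 0.02 and −0.03 and did not pass it. Stellate cell markers summed to 26286 to 29951 and 21700 to 26869, with overlap. Of these 6 markers Col1a1 and Acta2 were lower at that p, while Lrat, Reln, Des and Pdgfrb had log2 fold changes of 0.16, 0.06, −0.02 and −0.10 and did not pass it. Cholangiocyte markers summed to 2528 to 3942 and 2720 to 3803, and hepatocyte markers to 5617715 to 6238262 and 5660558 to 6830770, with Cyp2e1 higher (unadjusted p = 0.0356, limma). No listed marker was at 0 in all livers. What these lists contribute to the chemokine values was not tested.

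**Figure D4:**
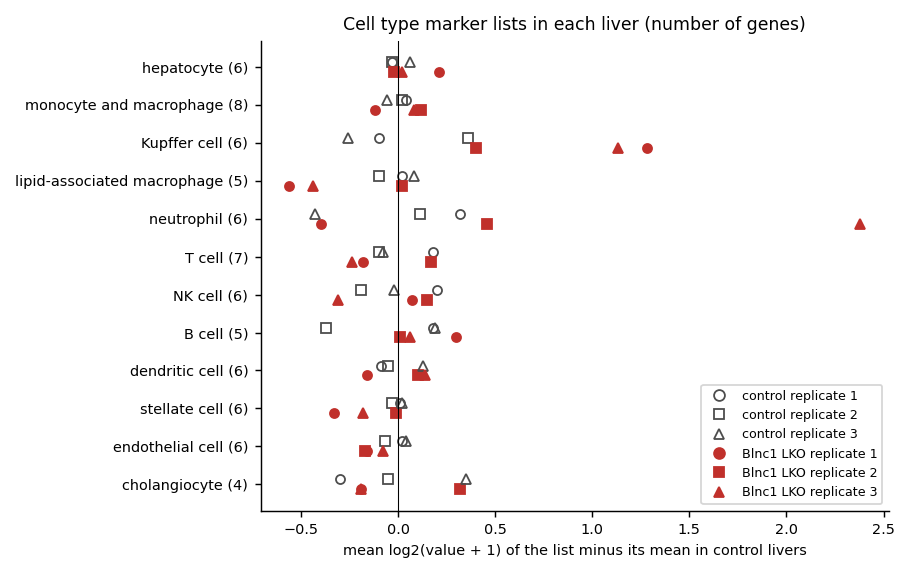
For each cell type marker list (number of genes listed in parentheses), the horizontal axis gives the mean log2(value + 1) of its genes minus the same mean in control livers. Open grey symbols are control and filled red symbols Blnc1 LKO livers; replicate 3 of Blnc1 LKO lies far right for neutrophils, and replicates 1 and 3 for Kupffer cells.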

How the data were processed

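Expression was measured by sequencing polyA-selected mRNA of 3 control and 3 Blnc1 LKO livers. The authors aligned reads to mm10 with STAR and counted them per gene with HTSeq, without versions or an annotation being given in the sources used here. The deposited signal is each gene's count after the authors' scaling by a size factor for every liver. Dividing by the value of 1 read gave whole reads for 100% of values (within 0.01), and these were used for edgeR (version 4.0.16), DESeq2 (version 1.42.0) and voom only as alternatives.

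The main test was limma (version 3.58.1, R 4.3.3) with a trend on log2(value + 1), over genes whose value reached 1 in 3 or more livers, without covariates, with Benjamini-Hochberg adjustment and a threshold of 0.05. The scripts were tested on simulated data. The library kit does not mark strand. Positions and upstream sequences came from RefSeq (GRCm38), exon lengths and 50-base words from GENCODE M21, and all 51 symbols matched both. Values in each liver are given for Ccl2, Ccr2 and Cx3cr1, for the 10 ligands and 8 receptors of highest mean value, and for genes with a mean of at least 10 that had an unadjusted p under 0.05 or groups without overlap. The genes and lists were chosen with earlier results of these data known. The table holds 23 symbols turned into calendar dates, which were not used as chemokine genes. RefSeq symbols of the same pattern outside the table (7 of them, among them Ccl26 and Cxcl15) were not analysed here. A further gene (1 of the 51) stands in the counts over the family and is not reported here by name.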

Additional observations from a re-analysis of the deposited data

How the results depend on the processing

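The median log2 fold change stayed below 0 under the 14 alternatives but was near 0 in some. It ran from −0.200 (without control replicate 1) to −0.018 (without Blnc1 LKO replicate 1) for ligands, and from −0.183 (without Blnc1 LKO replicate 3) to −0.034 (without control replicate 1) for receptors. The side of the adjusted threshold says little here, since no chemokine gene passed it in limma. Cxcl9 passed in DESeq2 (1 chemokine gene called). Of the 22 genes given in full, 16 kept their sign under every alternative tried, some with values close to 0, and 6 reversed with 1 liver left out. The log2 fold change of these 6 ran from −0.24 to 0.15 for Ccl6, from −0.15 to 0.00 for Ccl9, from −0.02 to 0.11 for Cxcl12, from −0.41 to 0.08 for Cx3cl1, from −0.17 to 0.08 for Ccr7 and from −0.18 to 0.04 for Cxcl14. The number of chemokine genes at an unadjusted p under 0.05, 13 with all livers, was 7 to 14 with 1 liver left out. It was 7 without control replicate 1 and also without control replicate 3, and the cause was not tested. In the same fits the share of all genes tested that was lower at that p moved too. It ran from 1.75% (without control replicate 1) to 5.47% (without Blnc1 LKO replicate 2). Over all genes, 1 was called with all livers, 2 with no filter on low values, 2 in edgeR, 84 in DESeq2 and 0 to 13 with 1 liver left out, the 13 without Blnc1 LKO replicate 2. With the replicate number as a block, 0 genes were called. There 9 chemokine genes were lower at an unadjusted p under 0.05, against 2.67% of all genes tested. Same-numbered livers of the groups had correlations of −0.0524, 0.0215 and −0.168 over 14562 genes, after the mean of each group was taken off. Those of livers with different numbers ran from −0.122 to 0.176. With 3 livers in each group, these values cannot decide whether the numbers mark a pairing. Depth limits the 7 genes with a mean under 10.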
